A study of Mus musculus with 12 samples.

Results

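Fos, Fosb, Fosl1, Fosl2, Jun, Junb, Jund, Atf3, Maff and Mafk encode basic leucine zipper transcription factors of the Fos, Jun, ATF and small Maf families. They were followed in newly made RNA of 2 kinds of mouse macrophage, either mock-treated or given lipopolysaccharide (LPS), a bacterial product sensed by Toll-like receptor 4. A gene was taken by its symbol in the platform annotation, through probe sets that name 1 gene only. Where several did, the one with the highest mean over the 12 arrays would stand for it. All 10 factors were found among the 19937 genes so defined, each with 1 probe set.

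The arrays formed 4 groups of 3: MPI-2 LPS, MPI-2 mock, BMM LPS and BMM mock. MPI-2 is 1 self-renewing macrophage line from fetal liver, kept in RPMI with 10% fetal calf serum and granulocyte-macrophage colony-stimulating factor (GM-CSF). BMM are bone marrow cells differentiated ex vivo into macrophages, grown in DMEM with 10% fetal calf serum and macrophage colony-stimulating factor (M-CSF). All cells were of the C57BL/6 strain and had no labelled genetic change. RNA made during 60 min was tagged with 4-thiouridine (4sU), a uridine analogue that enters RNA as it is transcribed, and was purified and put on whole-transcript arrays. LPS was given 30 min before the tagging, so the LPS groups cover 30 to 90 min of exposure. Cell type goes with growth factor and medium in these samples, and their parts, with that of any array batch, cannot be told apart. Replicates are labelled as biological, but no animal or culture is named for them, and the p-values cover only the variation among these arrays, some of which may be technical.

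Fos proteins bind DNA in pairs, typically with a Jun protein, while Jun proteins also pair with each other, and such pairs form the activator protein AP-1. In many cells the Fos and Jun genes are immediate early genes: growth factors and stress switch them on through MAP kinases before any new protein is made, and they often fall silent again soon after. ATF3 is a stress-induced member of the CREB/ATF family that in macrophages restrains inflammatory genes after Toll-like receptor signals. The small Maf proteins MAFF and MAFK lack a domain that activates transcription and pair with NRF2 or BACH1 at antioxidant response elements.

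Values are deposited log2 expression values, 1 per probe set and array. A change is a difference of group means in 1 limma model over all 12 arrays, with its standard error (SE) and a p-value adjusted over all genes. A gene rose or fell where the adjusted p was under 0.05. Because the arrays were normalised, each change is measured against the rest of the array, and a change over all RNA of a cell would not show. The background level was 3.36, the 95th percentile of 1027 olfactory receptor genes, and every group mean of the 10 factors lay above it. Log2 values of different probe sets are not comparable as levels, so groups are ordered within a gene only.

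Pairs of replicate arrays correlated at 0.986 to 0.990 for MPI-2 and at 0.953 to 0.978 for BMM. Within the BMM LPS group replicate 3 had the lowest mean correlation with the others, and within the BMM mock group replicate 1. For 9 of the 10 factors BMM LPS replicate 3 was the lowest of its group, and for 9 of 10 BMM mock replicate 1 was the highest of its group. Both are called outlying below, although mean correlation with its group was 0.9668 for BMM mock replicate 1 and 0.9653 for BMM LPS replicate 1. Results in BMM that rest on these arrays are given with and without both. Leaving out the lowest LPS array and the highest mock array of a gene raises its BMM change by construction. Such fits therefore show only how far a result depends on these arrays, and are no separate support for it. The macrophage label was checked with 8 markers, all above background in every group, and their summed log2 level was 12.12 to 12.17 in MPI-2 LPS, 11.75 to 11.87 in MPI-2 mock, 12.07 to 12.28 in BMM LPS and 12.53 to 12.58 in BMM mock. The single markers were less alike than their sum: between the mock groups 6 of the 8 were lower in MPI-2 and 1 higher (median -1.59), with Itgam at 5.07 in MPI-2 mock and 8.39 in BMM mock. With LPS 3 of the 8 rose and 3 fell in MPI-2, and 1 rose and 5 fell in BMM, and all 8 responses differed between the cell types, 7 of them higher in MPI-2. These markers thus moved beside the 10 factors, and their part in the results was not tested. Of other cells' markers, 3 or 4 of 8 neutrophil genes (Elane and Cebpe in every group), 1 of 5 T cell genes (Cd3e), none in MPI-2 and 2 of 4 B cell genes in BMM (Cd79b and Pax5), and none in MPI-2 and 1 of 5 mast cell genes in BMM (Tpsb2) had group means above background. Ly6g, Cd3d, Cd3g, Cd79a, Ms4a1 and Kit were below it in every group.

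Stretches upstream of the genes are shown first, because several members share short motifs there. The RefSeq table of GRCm38.p6 held 9 of the 10 genes in 11 windows, 3 of them for Maff. The 250 bases before each annotated start were searched on both strands. The letters TGACG, the core of the element that CREB and ATF proteins bind, occurred in 7 of the 11 windows (6 of 9 genes) and in 17.8% of all 32851 windows. TGACG was chosen after the member windows had been read. The fuller element TGACNTCA, which overlaps TGACG where N is G, occurred in windows of Jun and Maff and in 7.49% of all windows. Matches to the NF-kB consensus lay in windows of Fos, Fosb, Fosl2 and Maff, against 3.90% of all windows. The shorter form of the AP-1 element, TGANTCA, occurred in none of the 11 windows, against 6.75% of all. This form leaves out the TGACNTCA matches. The CArG box of serum response factor also occurred in none, against 1.47%. At such shares none is a likely count for 11 windows. Bases beyond the 250 were not searched, so sites farther upstream or elsewhere would be missed. TGACNNNGC, the core of the antioxidant response element, occurred in windows of Maff and Mafk and in 10.2% of all windows. Windows rich in G and C were not set apart in these shares. A match describes letters and not a bound site. Below, 5 windows are printed 5′ to 3′ on the strand of the gene, with matches in capitals. They are Fos and Fosb with TGACG and an NF-kB match, Jun with TGACATCA, and the Maff windows that hold TGACGTCA or TGACATCA.
Fos, chr12:85473640-85473889, plus strand: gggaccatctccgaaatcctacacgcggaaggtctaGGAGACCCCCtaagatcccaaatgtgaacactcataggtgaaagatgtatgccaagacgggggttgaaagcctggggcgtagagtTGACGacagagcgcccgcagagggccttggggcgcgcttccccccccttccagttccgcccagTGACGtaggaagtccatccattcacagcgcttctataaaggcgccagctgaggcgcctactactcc
Fosb, chr7:19310046-19310295, minus strand: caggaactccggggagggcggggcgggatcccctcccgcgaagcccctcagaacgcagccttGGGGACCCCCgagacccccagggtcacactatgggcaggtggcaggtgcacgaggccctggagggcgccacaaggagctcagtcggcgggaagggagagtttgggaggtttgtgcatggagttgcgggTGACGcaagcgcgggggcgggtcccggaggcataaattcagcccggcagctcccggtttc
Jun, chr4:95052223-95052472, minus strand: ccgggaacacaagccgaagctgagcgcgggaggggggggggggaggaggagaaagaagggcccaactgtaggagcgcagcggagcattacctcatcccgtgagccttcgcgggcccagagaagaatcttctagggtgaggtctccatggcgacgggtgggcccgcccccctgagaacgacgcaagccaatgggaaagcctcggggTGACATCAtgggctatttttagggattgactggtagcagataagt
Maff, chr15:79347270-79347519, plus strand: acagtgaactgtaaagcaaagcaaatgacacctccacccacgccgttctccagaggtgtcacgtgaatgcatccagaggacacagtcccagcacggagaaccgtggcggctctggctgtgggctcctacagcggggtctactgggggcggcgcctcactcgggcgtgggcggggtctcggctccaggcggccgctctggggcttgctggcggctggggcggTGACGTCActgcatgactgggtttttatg
Maff, chr15:79348152-79348401, plus strand: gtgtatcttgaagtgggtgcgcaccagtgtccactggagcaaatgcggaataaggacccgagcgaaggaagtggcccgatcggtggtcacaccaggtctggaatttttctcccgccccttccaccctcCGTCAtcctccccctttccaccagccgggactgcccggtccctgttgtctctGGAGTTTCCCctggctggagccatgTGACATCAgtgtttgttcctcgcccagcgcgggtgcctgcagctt

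The Fos family genes did not move together after LPS. In MPI-2 cells Fos and Fosb fell after LPS, while Fosl1 and Fosl2 did not pass the test. In BMM Fos, Fosb and Fosl2 fell and Fosl1 rose. These are bulk samples, so fewer cells making an RNA and less of it per cell cannot be told apart.

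**Figure D1:**
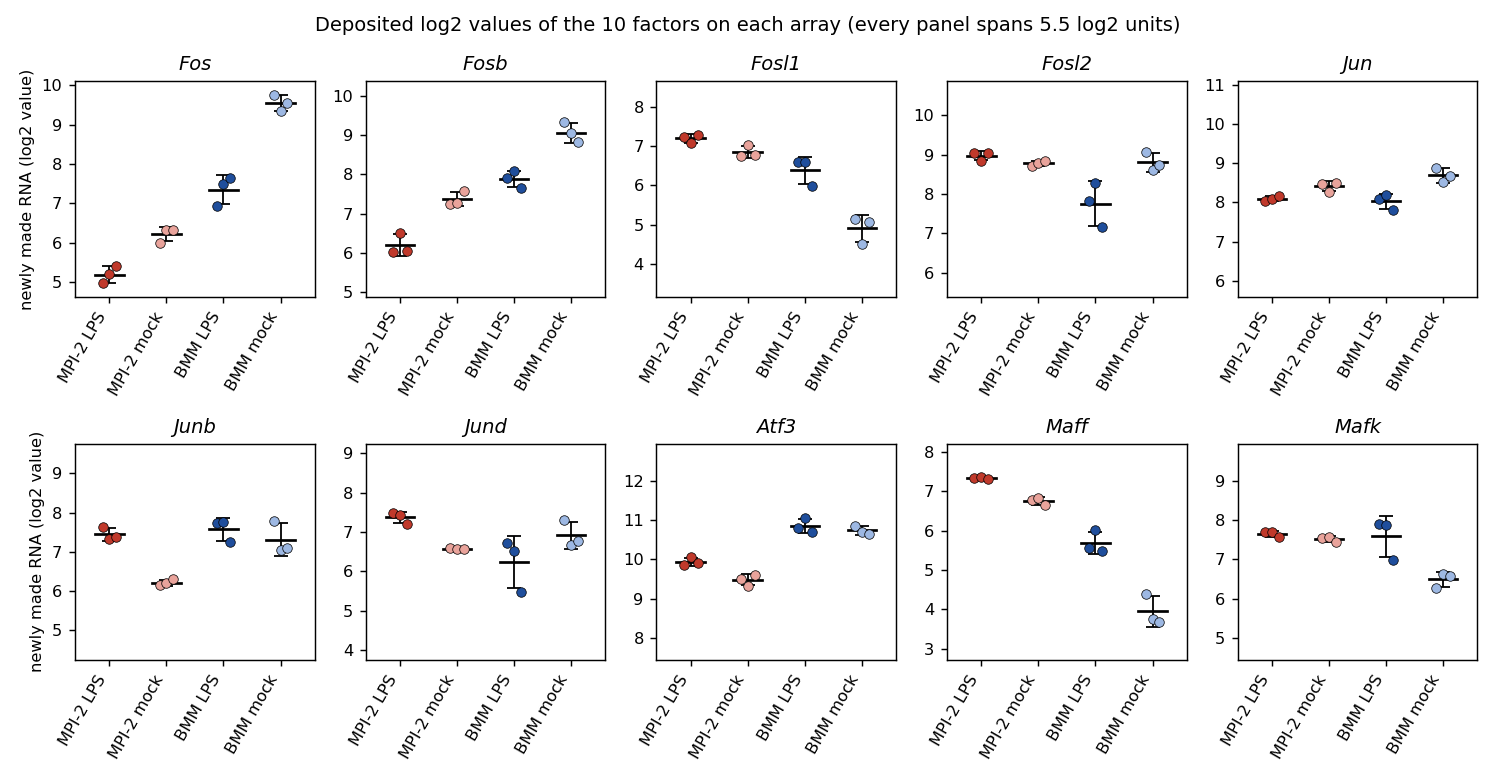
Deposited log2 values of newly made RNA (vertical axis) for the 10 factors, 1 panel a gene, in MPI-2 LPS, MPI-2 mock, BMM LPS and BMM mock from left to right. Points are the 3 arrays of a group, with a bar for the mean and whiskers for the SD, and every panel spans the same number of log2 units. Fos is lowest in MPI-2 LPS (mean 5.18) and highest in BMM mock (9.55), and Maff is highest in MPI-2 LPS (7.34) and lowest in BMM mock (3.94).

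Fos, the founding partner of Jun in AP-1, read 4.96, 5.19 and 5.40 in MPI-2 LPS, against 6.00, 6.32 and 6.33 in MPI-2 mock. The groups did not overlap, and the change was -1.03 ± 0.18 (2.04-fold lower, adjusted p = 0.00101). In BMM LPS the arrays read 6.92, 7.48 and 7.64, against 9.76, 9.34 and 9.54 in BMM mock. Every LPS array lay below every mock array, and the change of -2.20 ± 0.18 (4.60-fold lower, adjusted p = 2.37e-07) had the greatest size of any member in either cell type. Fosb, a close relative of Fos, had 6.02, 6.51 and 6.06 in MPI-2 LPS, against 7.25, 7.28 and 7.58 in MPI-2 mock, and fell by 1.17 ± 0.17 (adjusted p = 0.000178). It had 7.91, 8.08 and 7.66 in BMM LPS, against 9.32, 9.05 and 8.81 in BMM mock, and fell by 1.17 ± 0.17 there too (adjusted p = 7.84e-05). Neither pair of Fosb groups overlapped. The log2 changes of Fosb in the 2 cell types differed by 0.00, with a 95% interval of -0.52 to 0.52.

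Fosl1 and Fosl2 encode FRA-1 and FRA-2, which lack the strong activation domain of FOS. Fosl1 read 7.22, 7.08 and 7.29 in MPI-2 LPS, against 6.75, 7.04 and 6.77 in MPI-2 mock. All 3 LPS arrays lay above the mock arrays, but the change of 0.34 ± 0.19 did not pass (adjusted p = 0.31). In BMM LPS it read 6.59, 6.59 and 5.99, against 5.14, 4.51 and 5.07 in BMM mock, a rise of 1.48 ± 0.19 (2.80-fold, adjusted p = 1.74e-05). The BMM groups lay well apart, and Fosl1 was the only Fos gene to rise in either cell type. Fosl2 had 9.04, 8.84 and 9.04 in MPI-2 LPS, against 8.72, 8.79 and 8.84 in MPI-2 mock. These groups touched at 8.84, and the change was 0.19 ± 0.21 (adjusted p = 0.724). In BMM it had 7.83, 8.28 and 7.16 with LPS, against 9.07, 8.61 and 8.73 in mock. Here the groups stayed apart although BMM LPS replicate 3 lay far below the rest, and the fall was -1.04 ± 0.21 (adjusted p = 0.00146). Without both outlying BMM arrays (BMM LPS replicate 3 and BMM mock replicate 1) the fall was -0.61 (adjusted p = 0.00641).

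The Jun genes also split. In MPI-2 cells Junb and Jund rose after LPS and Jun did not pass. In BMM only Jun passed, as a fall.

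Jun, the founding member of its family, read 8.03, 8.10 and 8.17 in MPI-2 LPS, against 8.47, 8.26 and 8.49 in MPI-2 mock. The LPS arrays were the lower ones, with a change of -0.31 ± 0.14 (adjusted p = 0.176). BMM LPS arrays read 8.08, 8.19 and 7.81, against 8.87, 8.51 and 8.68 in BMM mock. These groups did not overlap either, and Jun fell by 0.66 ± 0.14 (adjusted p = 0.00167). Without both outlying arrays the BMM change was -0.46 (adjusted p = 0.0196).

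Junb, known for weaker activation than JUN at many sites and for its induction by cytokines, read 7.63, 7.32 and 7.38 in MPI-2 LPS, against 6.15, 6.20 and 6.30 in MPI-2 mock. It rose by 1.23 ± 0.19 (2.35-fold, adjusted p = 0.000274), the largest rise of a member in MPI-2, with no overlap. In BMM LPS it had 7.73, 7.75 and 7.24, against 7.79, 7.05 and 7.09 in BMM mock. The groups overlapped through BMM mock replicate 1, the highest of all 6 BMM arrays, and the change was 0.27 ± 0.19 (adjusted p = 0.349). Without that array it was 0.51 (adjusted p = 0.0309), and without both outlying arrays 0.67 (adjusted p = 0.0013). Whether Junb passed in BMM thus depended on 1 mock array. Jund, the Jun gene with the most even expression across tissues, had 7.48, 7.43 and 7.21 in MPI-2 LPS, against 6.60, 6.58 and 6.56 in MPI-2 mock. It rose by 0.80 ± 0.25 (adjusted p = 0.0394) with no overlap, and its SE comes from 1 spread over all 4 groups. In BMM LPS it read 6.71, 6.51 and 5.48, against 7.30, 6.67 and 6.78 in BMM mock. The groups overlapped, with BMM LPS replicate 3 far below the others, and the change was -0.68 ± 0.25 (adjusted p = 0.0538). Without both outlying arrays it was -0.12 (adjusted p = 0.596), while it passed on leaving out BMM LPS replicate 1 (-0.92), BMM LPS replicate 2 (-0.82) or BMM mock replicate 2 (-0.80).

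Atf3 rose slightly in MPI-2 and did not pass in BMM. It read 9.85, 10.05 and 9.90 in MPI-2 LPS, against 9.49, 9.33 and 9.61 in MPI-2 mock. The groups were apart, with a rise of 0.46 ± 0.13 (1.37-fold, adjusted p = 0.0237). In BMM LPS it read 10.80, 11.05 and 10.70, against 10.85, 10.70 and 10.65 in BMM mock. These arrays overlapped, with a change of 0.12 ± 0.13 (adjusted p = 0.571, 95% interval -0.16 to 0.39). The Atf3 values depended on scaling: after cyclic loess the MPI-2 change was 0.23 (adjusted p = 0.41) and the BMM change -0.22, and after quantile normalisation 0.32 (adjusted p = 0.127) and -0.35 (adjusted p = 0.0489).

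Of the small Maf genes Maff rose in both cell types and Mafk in BMM. Maff read 7.33, 7.37 and 7.32 in MPI-2 LPS, against 6.77, 6.84 and 6.65 in MPI-2 mock. It rose by 0.59 ± 0.18 (adjusted p = 0.0357), and its groups did not overlap. In BMM LPS it read 5.56, 6.01 and 5.49, against 4.39, 3.76 and 3.68 in BMM mock. The rise there was 1.75 ± 0.18 (3.35-fold, adjusted p = 1.84e-06), and the BMM mock mean of 3.94 lay not far above the background level, which can understate the change. Mafk had 7.70, 7.70 and 7.57 in MPI-2 LPS, against 7.54, 7.57 and 7.43 in MPI-2 mock, groups that met at 7.57, and its change of 0.14 ± 0.20 did not pass (adjusted p = 0.781). In BMM LPS it had 7.89, 7.88 and 6.98, against 6.28, 6.62 and 6.57 in BMM mock. It rose by 1.09 ± 0.20 (2.14-fold, adjusted p = 0.000503) without overlap, and by 1.29 without both outlying arrays.

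Counted together, 6 of the 10 factors passed in MPI-2, where 14.8% of all genes did. Of these 4 rose (Junb, Jund, Atf3 and Maff), where 5.17% of all genes rose, and 2 fell (Fos and Fosb), where 9.58% of all genes fell. The median change was 0.26 for the 10 and 0.02 for all genes. In BMM 7 of the 10 passed, where 25.7% of all genes did: 3 rose (Fosl1, Maff and Mafk), where 10.3% of all genes rose, and 4 fell (Fos, Fosb, Fosl2 and Jun), where 15.4% of all genes fell. The median change was -0.27 for the 10 and 0.04 for all genes. These shares of all genes include genes below background, while the 10 factors lay above it. In a fit to the 12030 genes with a mean above background, 2979 passed in MPI-2 and 4819 in BMM. In that fit 4 members rose and 2 fell in MPI-2, and 3 rose and 5 fell in BMM. Maff was the only member called higher in both cell types, and Fos and Fosb were called lower in both. The MPI-2 count rests on modest changes: Jund and Maff lost their calls on leaving out any 1 of the 6 MPI-2 arrays, with changes of 0.74 to 0.88 and of 0.53 to 0.63, and the number of risen members was then 1 or 2. Atf3 lost its call without MPI-2 LPS replicate 2 (0.40) or 3 (0.47) or MPI-2 mock replicate 1 (0.46) or 2 (0.39). Fewer arrays also leave fewer degrees of freedom in these fits. After cyclic loess or quantile normalisation 3 members rose in MPI-2. With the arrays of the 2 MPI-2 groups alone, a fit without the spread of the BMM arrays, 5 rose and 3 fell. The limma adjusted p was then 4.58e-05 for Jund, 0.000384 for Maff and 0.00512 for Atf3. With the arrays of the 2 BMM groups alone, 3 members rose and 4 fell as before, each at a larger limma adjusted p. It was 0.0196 for Fosl2, 0.0213 for Jun and 0.0106 for Mafk, and 3464 of all genes passed, against 5114. The full model gives a gene's change the same SE in both cell types, although the BMM arrays spread more.

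**Figure D2:**
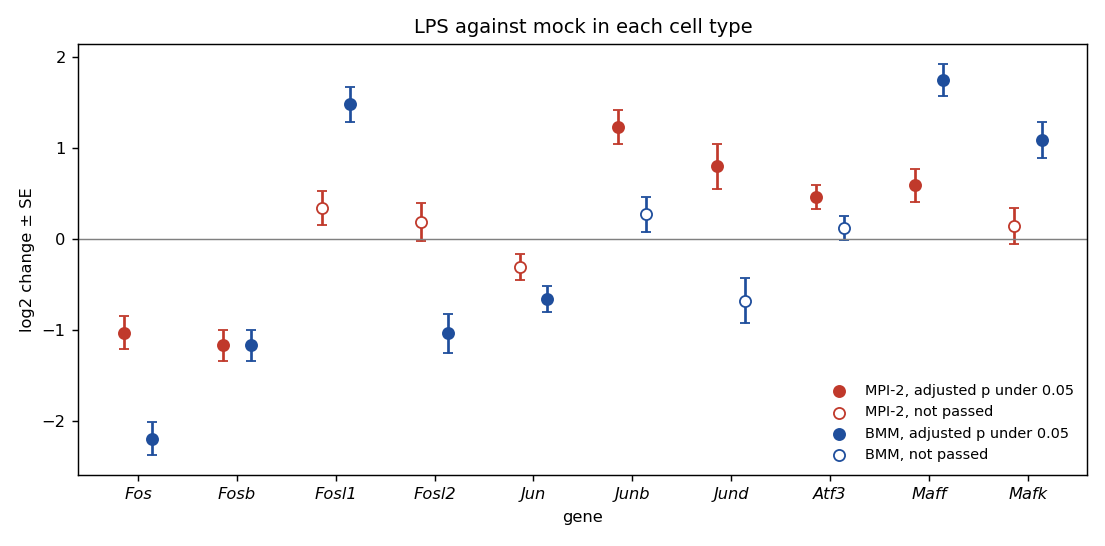
Change with LPS against mock (vertical axis, log2 change ± SE) for each of the 10 genes (horizontal axis), with MPI-2 on the left and BMM on the right of each pair. Filled points passed at an adjusted p under 0.05 and open points did not. Fos and Fosb lie below 0 and Maff above 0 in both, while Fosl1 and Mafk are filled in BMM alone and Junb, Jund and Atf3 in MPI-2 alone.

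The difference between the 2 LPS responses was tested directly, as the change in MPI-2 minus the change in BMM. The responses differed for 7 of the 10 factors (13.4% of all genes), 4 with a higher difference (7.08% of all genes) and 3 with a lower one (6.27% of all genes). In a fit to the 12030 genes with a mean above background, 2646 differed. Fos fell less in MPI-2, with a difference of 1.17 ± 0.26 (adjusted p = 0.00637). Fosl2, which fell in BMM and not in MPI-2, differed by 1.23 ± 0.30 (adjusted p = 0.0113). The Jun genes Jund (1.48 ± 0.35, adjusted p = 0.00893) and Junb (0.96 ± 0.27, adjusted p = 0.0251) had the higher response in MPI-2.

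Fosl1 (-1.14 ± 0.26, adjusted p = 0.00809), Maff (-1.16 ± 0.25, adjusted p = 0.00507) and Mafk (-0.95 ± 0.28, adjusted p = 0.0322) had the smaller response in MPI-2. These 3 genes already stood higher in MPI-2 mock than in BMM mock, and Fos stood lower; both comparisons use the same mock arrays. Jun differed by 0.35 (95% interval -0.06 to 0.76) and Atf3 by 0.34 (95% interval -0.05 to 0.73), which did not pass, though Atf3 did after quantile normalisation (0.67, adjusted p = 0.0185). Without both outlying BMM arrays all 7 differences still passed, at 1.21 for Fos, 0.80 for Fosl2, 0.91 for Jund, 0.56 for Junb, -1.46 for Fosl1, -1.48 for Maff and -1.14 for Mafk. The Fosl2, Jund and Junb differences were thus clearly smaller without these arrays, and those of Fosl1 and Maff larger in size. The choice of arrays itself favours these shifts. Mafk passed in only 3 of the 12 fits that leave out 1 array, those without BMM LPS replicate 3, BMM mock replicate 2 or BMM mock replicate 3, within a range of -1.25 to -0.80. Junb did not pass without MPI-2 LPS replicate 1 (0.87), MPI-2 mock replicate 1 (0.93) or MPI-2 mock replicate 2 (0.96).

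**Figure D3:**
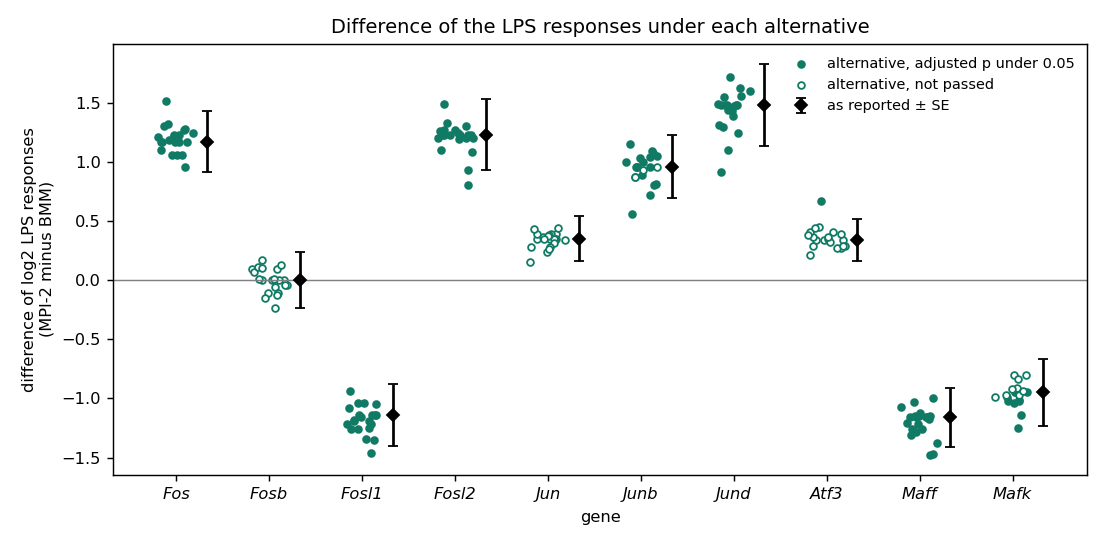
Difference of the log2 LPS responses, MPI-2 minus BMM (vertical axis), for each gene (horizontal axis). Diamonds show the values as reported with SE, and circles the same difference under each other setting or with arrays left out, filled where the adjusted p was under 0.05. Fos, Fosl1, Fosl2, Jund and Maff stay filled throughout, Junb and Mafk do not, and Fosb lies on both sides of 0.

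Set against BMM without stimulus, MPI-2 cells made less Fos, Fosb, Junb and Atf3 RNA and more Fosl1, Maff and Mafk RNA. Fos averaged 6.22 ± 0.19 in MPI-2 mock and 9.55 ± 0.21 in BMM mock (SD, n = 3 each), a change of -3.33 ± 0.18 (10.1-fold lower, adjusted p = 9.25e-10). Fosb averaged 7.37 ± 0.18 in MPI-2 mock and 9.06 ± 0.25 in BMM mock, and was 3.23-fold lower (adjusted p = 9.23e-07). Junb was 2.13-fold lower, at 6.22 ± 0.074 in MPI-2 mock and 7.31 ± 0.42 in BMM mock (adjusted p = 0.000232). Atf3 was 2.39-fold lower, at 9.47 ± 0.14 in MPI-2 mock and 10.73 ± 0.10 in BMM mock (adjusted p = 1.02e-06). In the other direction, Maff averaged 6.75 ± 0.097 in MPI-2 mock and 3.94 ± 0.39 in BMM mock, a change of 2.81 ± 0.18 (7.01-fold higher, adjusted p = 4.09e-09). Fosl1 was 3.86-fold higher, at 6.85 ± 0.16 in MPI-2 mock and 4.90 ± 0.34 in BMM mock (adjusted p = 4.98e-07). Mafk was 2.03-fold higher, at 7.51 ± 0.076 in MPI-2 mock and 6.49 ± 0.19 in BMM mock (adjusted p = 0.000567). In all 7 of the 10 passed, where 38.6% of all genes did: 3 were higher, where 20.6% of all genes were higher, and 4 lower, where 18.0% were lower. In a fit to the 12030 genes with a mean above background, as all 10 factors have, 6874 passed. The count of 7 of 10 was not far from that share.

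Fosl2 (-0.02 ± 0.21), Jun (-0.28 ± 0.14) and Jund (-0.34 ± 0.25) did not pass between the mock groups. The median over all genes was -0.104 in this comparison and -0.144 between the LPS groups, and cyclic loess moved these medians to -0.007 and -0.009. After cyclic loess Jun (-0.71, adjusted p = 0.00112) and Jund (-0.73, adjusted p = 0.0284) were lower in MPI-2 mock, and likewise after quantile normalisation (-0.52 and -0.74). The 7 members called in mock passed under both scalings with the same direction.

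After LPS, Fos was lower in MPI-2, at 5.18 ± 0.22 against 7.35 ± 0.38 in BMM (-2.16 ± 0.18, adjusted p = 1.05e-07), as did Fosb (-1.69 ± 0.17, adjusted p = 7.48e-07) and Atf3 (-0.92 ± 0.13, adjusted p = 2.63e-05). Maff was higher, at 7.34 ± 0.025 in MPI-2 LPS against 5.69 ± 0.28 in BMM LPS (1.65 ± 0.18, adjusted p = 1.41e-06). Fosl2 (1.21 ± 0.21, adjusted p = 0.000219) and Jund (1.14 ± 0.25, adjusted p = 0.00139) were higher in MPI-2 LPS and had not passed in mock. Jund was 0.76 higher without BMM LPS replicate 3. Fosl1 was higher by 0.81 ± 0.19 (adjusted p = 0.00248), but by 0.34 after cyclic loess and 0.37 after quantile normalisation (adjusted p = 0.156 and 0.12). Jun (0.07 ± 0.14), Junb (-0.13 ± 0.19) and Mafk (0.07 ± 0.20) did not pass, though Junb was lower after cyclic loess (-0.61, adjusted p = 0.0248). In all 7 factors passed (44.1% of all genes), of which 4 were higher (22.5% of all genes) and 3 lower (21.6% of all genes). Beside these comparisons, the dendritic cell list, 3 of whose 6 genes had means above background in each group, had a summed log2 level of 6.75 to 6.93 in MPI-2 LPS, 6.77 to 7.03 in MPI-2 mock, 5.89 to 6.27 in BMM LPS and 5.91 to 6.08 in BMM mock. Its gene Clec9a averaged 5.35 in MPI-2 LPS, 5.83 in MPI-2 mock, 3.18 in BMM LPS and 2.89 in BMM mock. Xcr1 of the same list went the other way, at 2.92 in MPI-2 LPS and 3.71 in BMM LPS. In mock 2 of the 6 dendritic cell genes passed as higher and 1 as lower in MPI-2, and after LPS 2 and 2. The part of this list in the result was not tested.

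**Figure D4:**
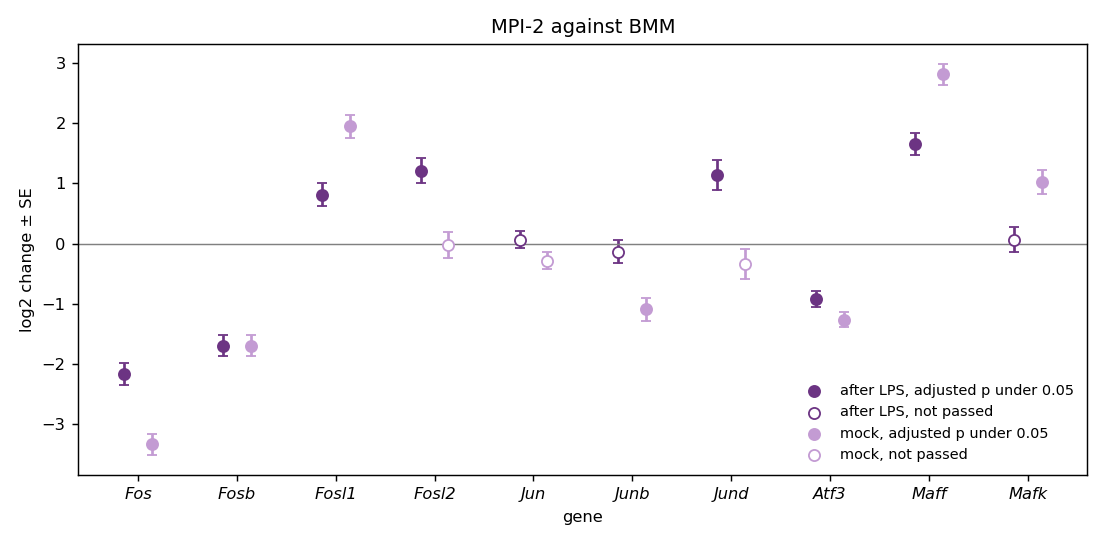
MPI-2 against BMM (vertical axis, log2 change ± SE) for each of the 10 genes (horizontal axis), after LPS on the left and in mock on the right of each pair. Filled points passed at an adjusted p under 0.05. Fos, Fosb and Atf3 lie below 0 and Fosl1 and Maff above 0 in both states, while Fosl2 and Jund are filled after LPS alone and Junb and Mafk in mock alone.

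The order of the 4 groups set the genes apart. Fos and Fosb ran from BMM mock over BMM LPS and MPI-2 mock down to MPI-2 LPS, and each neighbouring pair differed (largest adjusted p = 0.00101 for Fos and 0.0195 for Fosb). Their group means spanned 4.37 and 2.86 on the log2 scale. Maff ran the opposite way over a span of 3.40, again with every neighbouring pair different. Fosl1 had the same order as Maff over 2.29, but its MPI-2 groups were not separated (adjusted p = 0.31). Fosl2 was lowest in BMM LPS, apart from the other 3 groups, which did not differ as neighbours. Junb was lowest in MPI-2 mock and Mafk in BMM mock, each with the other 3 groups unseparated. Atf3 was highest in both BMM groups, which were not separated, then MPI-2 LPS, then MPI-2 mock. No neighbours passed for Jun or Jund, whose spans were 0.65 and 1.14.

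For each factor with a span of at least 1, the 3 genes with the most alike pattern were taken from 11322 genes above background, by the root mean square (rms) difference of mean-centred log2 values over the 12 arrays. The closest to Fos were Rgs2 (0.31), which encodes a regulator of G protein signalling, the nuclear receptor gene Nr4a2 (0.36) and Dhrs3 (0.42). Fosb was closest to Vsir (0.25), Rab11fip5 (0.27) and Sec24d (0.29). Fosl1 was closest to Pik3r6 (0.22), the hexokinase gene Hk2 (0.25) and Cdc42ep2 (0.26). Fosl2 was closest to the ERK phosphatase gene Dusp5 (0.14), Ykt6 (0.15) and Higd2a (0.17). Junb was closest to Rbis (0.21), the NF-kB subunit gene Relb (0.24) and Tmco6 (0.24). For Jund the 3 were Crat (0.24), Pmp22 (0.25) and Ipo13 (0.26). For Atf3 they were the interferon receptor gene Ifnar2 (0.15), Nav2 (0.17) and Olfr1174 (0.19). Nav2 averaged 3.67 in MPI-2 LPS and 3.48 in MPI-2 mock, near background. Olfr1174 is of the olfactory class that set the background, yet its group means ran from 5.83 to 7.01. Whether that signal comes from the named gene was not tested. For Maff they were the transporter gene Abcc5 (0.22), the potassium channel gene Kcna3 (0.23) and Ybx3 (0.32). For Mafk they were the cell cycle kinase gene Cdk6 (0.16), Ttl (0.16) and Ube2z (0.20). A smaller span allows a smaller rms difference, so these values are not compared between factors.

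Of 25 other leucine zipper genes that pair or compete with these factors, 3 (12%) fell and none rose in MPI-2 after LPS, at a median change of 0.07. The share that fell was near the 9.58% of all genes. The 3 were Nfe2 (-1.75 ± 0.21), a partner of small Maf proteins in blood cells, Xbp1 (-0.71 ± 0.18) and Atf7 (-0.54 ± 0.15). In BMM 4 (16.0%) rose and 9 (36.0%) fell, at a median of -0.16, where 10.3% and 15.4% of all genes did. Batf2 (2.91 ± 0.12, adjusted p = 1.17e-10) and Jdp2 (2.51 ± 0.22, adjusted p = 3.05e-07), whose products pair with JUN, rose, as did Nfil3 (1.23 ± 0.20). Ddit3 (-1.48 ± 0.22), Atf4 (-0.80 ± 0.16) and Mafg (-0.67 ± 0.13), the third small Maf gene, fell. The responses differed for Batf2 (-2.73 ± 0.17), Jdp2 (-2.34 ± 0.31) and Nfe2 (-1.79 ± 0.30), all lower in MPI-2, and for Ddit3 (1.81 ± 0.32), Mafg (0.75 ± 0.19) and Atf4 (0.85 ± 0.23), all higher. Batf2 averaged 3.82 in MPI-2 LPS and 7.07 in BMM LPS, and Jdp2 3.95 in MPI-2 LPS and 8.61 in BMM LPS.

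Of 34 genes of the MAP kinase cascades and the factors they phosphorylate, 29 were measured. After LPS 6 (20.7%) rose and 4 (13.8%) fell in MPI-2 (median change 0.12), where 5.17% and 9.58% of all genes did. In BMM 11 (37.9%) rose and 5 (17.2%) fell (median 0.26), where 10.3% and 15.4% did, so the share that fell was near that of all genes. Map3k8, the kinase that couples Toll-like receptors to ERK, rose by 1.16 ± 0.11 in MPI-2 and by 1.47 ± 0.11 in BMM. Mapkapk2, a kinase downstream of p38, rose by 1.18 ± 0.15 in MPI-2 and by 1.86 ± 0.15 in BMM, and Map3k5 by 0.99 ± 0.15 and 1.60 ± 0.15. Mef2d, one of the factors at the Jun promoter, fell in MPI-2 (-0.88 ± 0.21) and in BMM (-1.41 ± 0.21). The responses differed for 5 of the 29, a share near the 13.4% of all genes, among them Map2k1 (-1.12 ± 0.24). For Mef2c, also called, the means of 2.96 in MPI-2 LPS and 3.10 in MPI-2 mock lay below background.

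Of 17 genes known for AP-1 control regions 15 were measured, and 8 (53.3%) rose and 2 (13.3%) fell in MPI-2 (median change 1.53). In BMM 9 (60.0%) rose and 2 (13.3%) fell (median 0.69). Of all genes 5.17% rose and 9.58% fell in MPI-2, and 10.3% and 15.4% in BMM, so the list's shares that fell were near these. The collagenase gene Mmp13 rose by 5.78 ± 0.13 in MPI-2 and by 4.95 ± 0.13 in BMM, and Ptgs2, which encodes cyclooxygenase-2, by 4.16 ± 0.13 and 4.12 ± 0.13. Vegfa fell in MPI-2 (-0.74 ± 0.17) and in BMM (-3.53 ± 0.17), and so did Ccnd1, which encodes cyclin D1 (-1.30 ± 0.23 and -1.95 ± 0.23). Timp1 rose by 3.18 ± 0.21 in BMM, where its mock mean of 3.12 lay below background, and its response was lower in MPI-2 (difference -1.65 ± 0.30). Plau, the urokinase gene, had the higher response in MPI-2 (difference 2.06 ± 0.28). LPS acts on these genes through several pathways, and which factor moved them was not tested.

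Of 21 genes with antioxidant response elements 20 were measured, and 4 (20.0%) rose and 6 (30.0%) fell in MPI-2 (median change -0.06), against 5 (25%) and 12 (60.0%) in BMM (median -0.69). Of all genes 5.17% rose and 9.58% fell in MPI-2, and 10.3% and 15.4% in BMM. Slc7a11, the cystine importer, rose by 2.23 ± 0.19 in MPI-2 and by 3.75 ± 0.19 in BMM. Gclm, a subunit of the enzyme that starts glutathione synthesis, fell in MPI-2 (-1.37 ± 0.18) and in BMM (-1.68 ± 0.18), and its partner Gclc fell in BMM (-1.65 ± 0.17). The responses of Hmox1 (1.91 ± 0.26), the haem oxygenase gene, Osgin1 (1.75 ± 0.28) and Gclc (1.27 ± 0.24) were higher in MPI-2, and that of Slc7a11 lower (-1.52 ± 0.27). Of 14 genes linked with ATF4 and ATF3 in the integrated stress response, 2 of which also stand in the leucine zipper list, 2 (14.3%) rose and none fell in MPI-2 (median 0.06). In BMM 3 (21.4%) rose and 7 (50.0%) fell (median -0.64). The shares of all genes beside these counts are those given for the antioxidant list. Gadd45a rose by 3.62 ± 0.20 in MPI-2, with a difference of 3.62 ± 0.28 between the responses. Ppp1r15a, which encodes the phosphatase subunit GADD34, rose by 0.67 ± 0.14 in MPI-2 and by 2.77 ± 0.14 in BMM, and Nupr1 by 3.17 ± 0.22 in BMM. Asns, the asparagine synthetase gene (-1.33 ± 0.17), and Sesn2 (-1.63 ± 0.13) fell in BMM, and both responses were higher in MPI-2 (1.75 ± 0.24 and 1.70 ± 0.18).

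Between the cell types the same lists went in both directions. Of all genes 20.6% were higher and 18.0% lower in MPI-2 in mock, and 22.5% and 21.6% after LPS, and many list counts lay near these shares. In mock, 7 (28%) of the 25 other leucine zipper genes were higher and 9 (36.0%) lower in MPI-2, and after LPS 11 (44.0%) were higher and 8 (32.0%) lower, with 4 higher in each state after cyclic loess. Nfe2 was higher in MPI-2 mock (2.51 ± 0.21) and Jdp2 lower (-2.32 ± 0.22). Among the MAP kinase genes 10 (34.5%) were higher and 5 (17.2%) lower in mock, and 7 (24.1%) and 6 (20.7%) after LPS, but after cyclic loess the counts were 4 and 8 in mock and 2 and 12 after LPS. Mef2c, a myeloid transcription factor gene, was lower in MPI-2 mock, at 3.10, below background, against 7.05 in BMM mock, so no exact change is given for it. Of the AP-1 target list 2 (13.3%) were higher and 6 (40.0%) lower in mock, with Plaur higher (1.58 ± 0.16) and Plau (-4.29 ± 0.20), Ccl2 (-4.06 ± 0.17) and Ptgs2 (-3.35 ± 0.13) lower in MPI-2. Of the antioxidant list 4 (20.0%) were higher and 6 (30.0%) lower in mock, and 9 (45.0%) and 3 (15%) after LPS. Slc7a11 (3.82 ± 0.19) and the glutathione reductase gene Gsr (3.33 ± 0.14) were higher in MPI-2 mock, and Hmox1 (-1.12 ± 0.19) was lower. Of the stress response list 5 (35.7%) were higher and 5 (35.7%) lower in mock, and 9 (64.3%) and 2 (14.3%) after LPS, when Asns was higher by 3.90 ± 0.17 and Ppp1r15a lower (-2.91 ± 0.14) in MPI-2.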

How the data were processed

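The deposited table holds log2 expression values, 1 per probe set and array, made with RMA and the package affy, per the submitters' processing notes. Neither their versions nor a single run over all 12 arrays is stated in the sources at hand. Log base 2 follows from the method and from values of 1.18 to 12.82. RMA is built to correct background, equalise the probe distributions of the arrays and summarise each probe set, so overall changes in RNA amount would not show. The deposited values still differed in spread between groups. Their interquartile range was 2.38 to 2.69 in BMM LPS and 3.06 to 3.21 in MPI-2 mock. Per the labels' protocols, 200 ng of purified newly made RNA was amplified for whole-transcript arrays. Precision is limited by the number of arrays.

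Of 34760 probe sets, 21640 name 1 gene, 1321 name several and 11799 are unnamed here. Symbols were updated through Entrez identifiers against RefSeq (GRCm38.p6), which was used for names and for the promoter windows. A gene with several probe sets (954 genes) was represented by the one with the highest mean. No gene was filtered out. Limma 3.58.1 in R 4.3.3 fitted 4 group means to the 12 arrays (8 residual degrees of freedom, 6.99 prior), with Benjamini-Hochberg adjustment over 19937 genes at 0.05. Every adjusted p is limma's.

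The members and gene lists were chosen with earlier results of these data known. All 10 factors are named in every comparison. Of each list up to 3 genes in each direction with the smallest adjusted p were eligible to be named. For each factor with group means spanning at least 1, the 3 genes with the most alike pattern are named. Clone names and predicted genes were left out of the last.

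Replicate numbers did not pair the arrays: same-numbered LPS and mock arrays had deviations correlated at 0.035, -0.183 and -0.141 in MPI-2 and 0.285, -0.096 and 0.035 in BMM. The numbers in the titles and descriptions of the MPI-2 mock arrays differ, and those of the titles are used. Alternatives were cyclic loess, quantile normalisation, a background filter, limma's trend and robust options, array weights, the 2 groups alone, the mean of a gene's probe sets, replicate blocks, each array left out, and BMM mock replicate 1 with BMM LPS replicate 3 left out together. The list counts under each setting, and the motif TGACG, were added after the data were seen.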

Additional observations from a re-analysis of the deposited data

Results flagged for a closer look

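The LPS response differed between the 2 cell types for 7 of the 10 factors, by limma's test of the difference itself (MPI-2 minus BMM, with 3 arrays in each of the 4 groups). Fos differed by 1.17, Fosl2 by 1.23, Junb by 0.96 and Jund by 1.48 on the log2 scale. Fosl1 differed by -1.14, Maff by -1.16 and Mafk by -0.95. For Jund the LPS arrays moved up in MPI-2 (0.80) and the BMM change, at -0.68, was of the opposite sign but did not pass. For Fosl2 the changes were 0.19 in MPI-2 and -1.04 in BMM, and the MPI-2 one did not pass. Fos fell and Maff rose in both cell types. Fosl1 (0.34) and Mafk (0.14) did not pass in MPI-2, and Junb (0.27) did not pass in BMM, with 95% intervals that include 0.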

How the results depend on the processing

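Of 1090 values of member changes under other settings, 1013 kept their direction and their side of the threshold. A further 34 no longer passed, 19 came to pass in the same direction and 24 changed sign. None of the 24 had been called in the full model. Of these 24, Atf3 in BMM after quantile normalisation came to pass with the opposite sign (limma adjusted p = 0.0489). All genes called for LPS in MPI-2 numbered 5026 with the arrays of the 2 groups alone and 5183 with array weights, against 2941. In each of these settings 5 members rose and 3 fell in MPI-2, against 4 and 2 in the full model. The members that rose in MPI-2 numbered 4, but 2 in the fit with a replicate block by the numbers in the descriptions (Jund 0.63, adjusted p = 0.108; Maff 0.48, adjusted p = 0.192) and 1 to 2 without any 1 of the 6 MPI-2 arrays. With a replicate block by the titles Jund fell in BMM (-0.68, adjusted p = 0.0229), so 5 members fell there, as also with the description numbers; no other call on a member changed with the title block. These signs changed: Atf3 in BMM after LPS, -0.22 (cyclic loess) and -0.35 (quantile normalisation); the Fosb difference of responses, -0.04 (cyclic loess), -0.11 (array weights), -0.15 to 0.13 over the fits without 1 array (5 of them below 0), and -0.24 without both outlying BMM arrays; Fosl2 between mock groups, 0.03 (array weights), 0.02 (description block), 0.02 and 0.12 without MPI-2 mock replicate 1 or BMM mock replicate 1, and 0.12 without both; Jun between LPS groups, -0.37 (cyclic loess), -0.13 (quantile), -0.03 to 0.16 over the fits without 1 array (below 0 without BMM LPS replicate 3) and -0.03 without both; and Mafk between LPS groups, -0.40, -0.21, -0.05 (array weights), -0.23 to 0.22 over the fits without 1 array (below 0 without BMM LPS replicate 3) and -0.23 without both. The causes were not tested. Of 1090 counts of list genes 89 moved by more than 1.5 times, or to or away from 0, among them the MAP kinase counts between cell types given above. With 3 arrays a group changes such as that of Jund in BMM (-0.68) or of Atf3 in MPI-2 (0.46) lay near the threshold, and other settings moved them across it.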

Other observations

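Spread among arrays differed between the cell types for these genes. The SD of a factor within a group had a median of 0.11 in MPI-2 LPS, 0.1135 in MPI-2 mock, 0.32 in BMM LPS and 0.245 in BMM mock, where the median SD over all genes was 0.109, 0.12, 0.204 and 0.176. The highest SD was that of Jund in BMM LPS (0.66), against 0.017 for Jund in MPI-2 mock. The interquartile range of all log2 values was 2.95 to 3.04 in MPI-2 LPS, 3.06 to 3.21 in MPI-2 mock, 2.38 to 2.69 in BMM LPS and 2.78 to 2.88 in BMM mock.

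Further markers of other cells were measured above background in both cell types. Of 6 stromal genes 4 had means above it in MPI-2 LPS, 3 in MPI-2 mock, 5 in BMM LPS and 4 in BMM mock. Of 4 hepatocyte genes 1 did in each group, but 2 in BMM LPS. Pdgfra, a stromal marker, averaged 4.41 in MPI-2 LPS, 6.13 in MPI-2 mock, 3.50 in BMM LPS and 3.39 in BMM mock. Col1a1 went the other way, at 4.61 in MPI-2 LPS, 4.42 in MPI-2 mock, 4.95 in BMM LPS and 4.99 in BMM mock. Between the mock groups 1 of the 6 stromal genes passed as higher and 2 as lower in MPI-2, and after LPS 1 and 1. Mmp8, of the neutrophil list, averaged 4.97 in MPI-2 LPS, 3.44 in MPI-2 mock, 2.47 in BMM LPS and 2.51 in BMM mock. In mock 1 of the 8 neutrophil genes passed as higher and 2 as lower in MPI-2, and after LPS 1 and 1.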
